A study of Mus musculus with 5 samples.

Results

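The regions described here are the peaks of the transcriptional coactivator YAP that lay on a peak of its DNA-binding partner TEAD and away from any peak of Myc or RNA polymerase II (RNAPol2). A YAP peak was taken when it shared at least 1 bp with a TEAD peak and no base with a Myc or an RNAPol2 peak. Of 10293 YAP peaks, 4236 met this rule, or 41.2% (95% Wilson interval 40.2 to 42.1). They are called distal YAP-TEAD peaks below, where distal means away from RNAPol2 and Myc peaks. Distance to transcription start sites was not measured, and marks of enhancers were not analysed here, so that enhancer activity was not checked.

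The peaks came from chromatin immunoprecipitation followed by sequencing (ChIP-seq) in 3T9MycER cells, immortalized mouse embryonic fibroblasts that express MycER, a Myc protein switched on by 4-hydroxytamoxifen. The cells also carried YAPS127A, a YAP mutant that escapes inhibitory phosphorylation, under doxycycline control from a retroviral construct introduced with drug selection, and per the series' design text they were quiescent and confluent. For the libraries used here, MycER was activated with 400 nM 4-hydroxytamoxifen and YAPS127A induced with 2 µg/ml doxycycline, and no library without these treatments was analysed. There was 1 library per antibody (YAP, TEAD, Myc and RNAPol2), with 20441605 to 38345189 tags, so that no spread between replicates exists and no p-value is given. Cells for YAP were fixed with an additional crosslinker before formaldehyde, which the other antibodies were not.

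YAP does not bind DNA itself. The kinases of the Hippo pathway phosphorylate it and keep it in the cytoplasm, and nuclear YAP is brought to DNA by TEAD proteins. In many cell types most YAP-TEAD sites are known to lie away from promoters, in enhancers that also bind AP-1 factors, while Myc is found mainly at active promoters, which also carry RNAPol2.

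The rule used the calls of all 4 lists, and the heights and counts below describe peaks chosen by those calls. Fold enrichment is the authors' ratio of the tag pileup at the summit to the local background in the control, a single library for all 4 lists whose identity with the IgG-labelled input sample is not stated. Intervals of medians are 95% order-statistic intervals over peaks, and all intervals cover counting error only. Peaks of 1 library are not replicates, and reads copied by PCR are not independent molecules. Absence of a peak means that none was called.

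At the edge of the rule, 61 of the 4236 peaks had an RNAPol2 peak less than 100 bp away and 21 had a Myc peak as close. The closest to RNAPol2 was chr13:93299975-93300182 (mm9, as are all positions), 1 bp from it, with a YAP fold enrichment of 7.57. It was followed by chr6:90455683-90455885, 2 bp away with a fold of 5.30, and chr6:142316047-142316302, 4 bp away with a fold of 6.24. Just outside, the peaks sharing fewest bases with RNAPol2 were chr8:90864408-90864669 with 1 bp, chr10:67741577-67741906 with 2 bp and chr17:86749529-86749843 with 3 bp. Their YAP folds were 4.90, 5.50 and 8.44, and the ranges of the folds on both sides of the edge overlapped. Of the 2079 YAP-TEAD peaks excluded by RNAPol2 alone, 549 overlapped only RNAPol2 peaks with a −log10 q under 10. On the TEAD side, the median overlap was 284 bp and 19 of the 4236 peaks shared 50 bp or less.

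Distal YAP-TEAD peaks were of moderate YAP height. Their median YAP fold enrichment was 6.24 (6.24 to 6.37), with quartiles of 5.30 and 7.75 and a highest value of 32.8. The median pileup was 24 tags and the median width 294.5 bp. YAP-TEAD peaks that overlapped RNAPol2 and not Myc had a median fold of 6.86 (6.69 to 7.0), a pileup of 28 and a width of 361 bp. The 2723 peaks with YAP, Myc, TEAD and RNAPol2 had a median fold of 6.93 (6.86 to 7.13) and a width of 395 bp. The distal peaks were thus lower and narrower at the median than both classes with RNAPol2. A wider YAP peak meets an RNAPol2 peak by 1 bp more easily, so the rule itself favours narrow distal peaks. YAP fold went with width, with a Spearman's rho of 0.455 at distal peaks and 0.548 with RNAPol2 and without Myc. The part of width in these medians and in the shares of tall peaks below was not tested. The ratio of medians to the class with RNAPol2 and without Myc was 0.910 (0.891 to 0.952). The 388 peaks with YAP, Myc and TEAD and without RNAPol2 were closer in fold, at 6.49 (6.24 to 6.86), with a width of 361.5 bp. YAP peaks without TEAD were lower and narrower than distal peaks, at 5.82 (5.64 to 5.93) and 221 bp.

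The gap was wider among tall peaks. A YAP fold of at least 10 was reached by 14.8% of all YAP peaks and by 401 distal YAP-TEAD peaks, or 9.47% (8.62 to 10.4). The share was 20.6% (18.9 to 22.4) with RNAPol2 and without Myc, and 23.8% (22.2 to 25.4) with Myc and RNAPol2. At peaks with Myc and TEAD and without RNAPol2 it was 12.6% (9.69 to 16.3), and at YAP peaks without TEAD 0.115%. Ordered by YAP fold, the share of distal peaks stayed between 42.5% and 46.6% in the 7 lowest deciles of the YAP list. It was 41.3% in the eighth decile, 36.3% in the ninth and 22.4% (19.98 to 25.1) in the highest, where folds exceeded 11.5. At the other end, a −log10 q under 5 was found at 11.7% of distal peaks (10.8 to 12.7), close to the 10.9% of all YAP peaks (10.3 to 11.5). The share was 8.47% with RNAPol2 and without Myc (7.34 to 9.74) and 9.73% with Myc and RNAPol2. It was 7.99% with Myc and TEAD and without RNAPol2, and 17.5% at YAP peaks without TEAD.

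**Figure D1:**
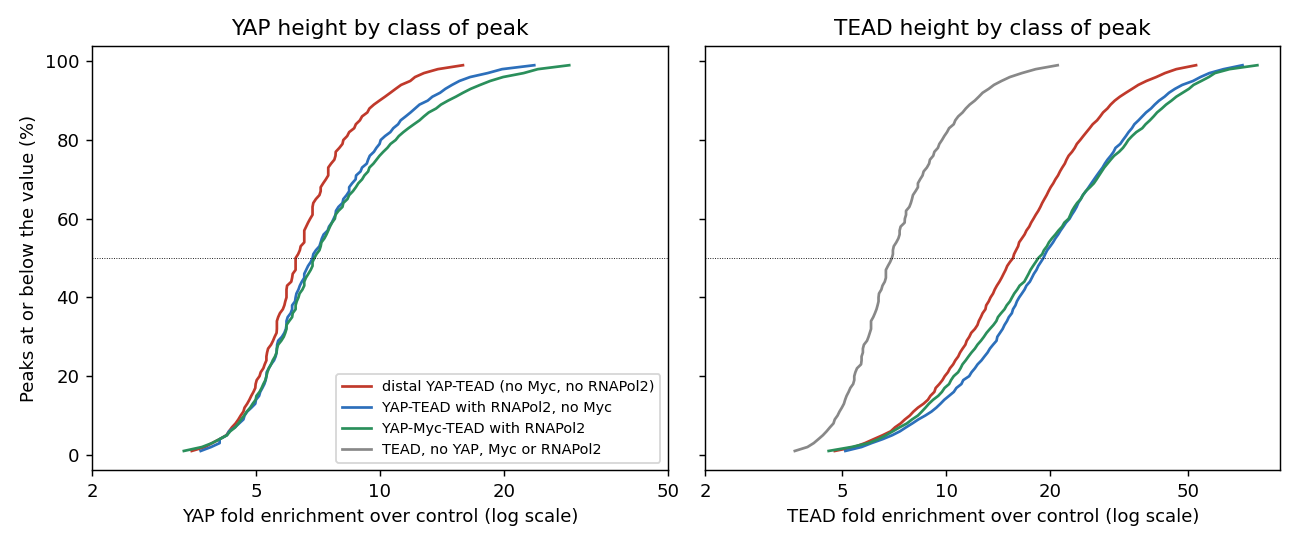
Cumulative percentage of peaks (vertical axes, percentiles 1 to 99) by YAP fold enrichment (left) and TEAD fold enrichment (right, both horizontal axes on a log scale), for distal YAP-TEAD peaks and 2 other classes of YAP peaks, and on the right also for TEAD peaks without YAP, Myc or RNAPol2. Above the lowest folds the curve of the distal peaks (red) lies left of both other YAP classes, with medians of 6.24 for YAP and 15.6 for TEAD, and on the right far from the TEAD peaks without YAP, whose median is 6.95.

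The tallest distal YAP-TEAD peak was chr9:73320368-73320772, with a pileup of 105 YAP tags and a fold of 32.8 (exact Poisson 95% interval of the pileup, divided by the background, 26.8 to 39.7). TEAD stood at a fold of 79.9 there, its summit was 21 bp from that of YAP, and the nearest RNAPol2 peak was 340.4 kb away. The next were chr5:12639510-12639975 and chr7:85174185-85174700, both with a YAP fold of 29.6 (24.0 to 36.2). The first of these lay 758.7 kb from RNAPol2 and the second 73.8 kb.

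Next came chr7:104277407-104277857, with a fold of 28.7 (23.1 to 35.2), and chr8:42298877-42299331, with 24.75 (19.8 to 30.6). They were followed by chr2:101563033-101563637 at 23.7 (18.7 to 29.7), chr13:25731812-25732283 at 23.0 (19.1 to 27.4) and chr4:95167825-95168232 at 22.5 (17.6 to 28.3). The interval of the eighth overlapped that of the first, so that counting error alone leaves their order unsettled. The peak on chromosome 13 had the largest pileup of these 8 peaks, 124 tags, over a background 1.68 times the lowest in the list. In all 8 the YAP and TEAD summits lay 1 to 38 bp apart, and RNAPol2 was at least 25.03 kb away.

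TEAD was tall at these sites. The median TEAD fold at distal YAP-TEAD peaks was 15.6 (15.2 to 15.8), with quartiles of 10.8 and 22.3, against 6.95 (6.93 to 7.0) at the 26994 TEAD peaks that overlapped no YAP, Myc or RNAPol2 peak. Median TEAD pileups were 59 and 26 tags, and median TEAD widths 559 and 291 bp. TEAD was higher still at YAP-TEAD peaks with RNAPol2 and without Myc, with a median fold of 19.1 (18.4 to 19.6). A single TEAD peak was overlapped in 4222 of the 4236 cases and 2 in the other 14. Seen from TEAD, 4114 peaks held 1 distal YAP-TEAD peak, 62 held 2 and 4 held 3. Although the YAP peaks themselves avoided them, 109 of these 4180 TEAD peaks reached an RNAPol2 peak and 54 a Myc peak.

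How often a TEAD peak carried a distal YAP peak went with its height. Among the 31059 TEAD peaks without Myc or RNAPol2, 13.0% overlapped a distal YAP-TEAD peak. The share was 1.67% in the lowest decile of TEAD fold (1.28 to 2.19), 2.87% in the fifth and 7.53% in the seventh. It then rose to 14.4% in the eighth, 27.3% in the ninth and 66.0% in the highest decile (64.3 to 67.6), where TEAD folds were at least 15.4. Of the 311 peaks in the top 1%, with folds of at least 33.8, 298 or 95.8% (92.98 to 97.5) carried one. YAP below the calling threshold at weak TEAD peaks is not counted in these shares. TEAD peaks with a distal YAP-TEAD peak had a median width of 555 bp, against 291 bp at those without YAP, Myc or RNAPol2. Wider peaks meet an overlap of 1 bp more easily, and the part of width in these shares was not tested.

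The distal YAP-TEAD peaks of highest TEAD fold beyond those named above were not all tall in YAP. The highest, 91.0, was at chr6:90455683-90455885, where the YAP fold was 5.30 with a pileup of 17 tags. There the TEAD summit lay 2655 bp from the YAP summit, so that this height belongs to another place within a wide TEAD peak. A TEAD summit over 1000 bp away was found at 7 distal peaks. The next 4 were chr13:118198711-118199119 (TEAD fold 79.9, YAP fold 14.35), chr13:102197765-102198375 (75 and 15.1), chrX:166120133-166120825 (72.0 and 21.2) and chr3:145167510-145168285 (65.0 and 21.1). Their summits lay 7 to 36 bp apart. The peak on chromosome X was the one among them near RNAPol2, at 2.15 kb.

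YAP height followed TEAD height within the class, with a Spearman's rho of 0.577 across the 4236 peaks, and of 0.604 for pileups. The peaks come from 1 YAP and 1 TEAD library with the same control, and are not independent replicates. The rho was 0.677 over the 2079 peaks with RNAPol2 and without Myc.

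The lower YAP of distal peaks was then set against TEAD height. YAP-TEAD peaks without Myc were split into quintiles of TEAD fold, and peaks with and without RNAPol2 were compared in each. In the lowest quintile, with TEAD folds up to 10.3, the median YAP fold was 5.32 without RNAPol2 and 5.30 with it, a ratio of 1.00 (0.958 to 1.04). The ratios were 1.01 and 0.998 in the next 2 quintiles, and their intervals also included 1. In the fourth quintile the medians were 6.95 and 7.64, a ratio of 0.910 (0.875 to 0.986). In the highest, with TEAD folds over 27.01, they were 9.36 and 10.6, a ratio of 0.880 (0.815 to 0.95). The 2 classes were thus close in YAP height at weak and intermediate TEAD peaks, and distal peaks had lower medians at strong ones. The distal peaks were also fewer there, making up 74.7% of the YAP-TEAD peaks without Myc in the lowest quintile (72.2 to 77.0) and 51.8% in the highest (49.0 to 54.5). Their median YAP width was lower in each quintile. It was 255 bp against 267 bp with RNAPol2 in the lowest, and 381 bp against 453 bp in the highest. The part of width in these ratios and shares was not tested.

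**Figure D2:**
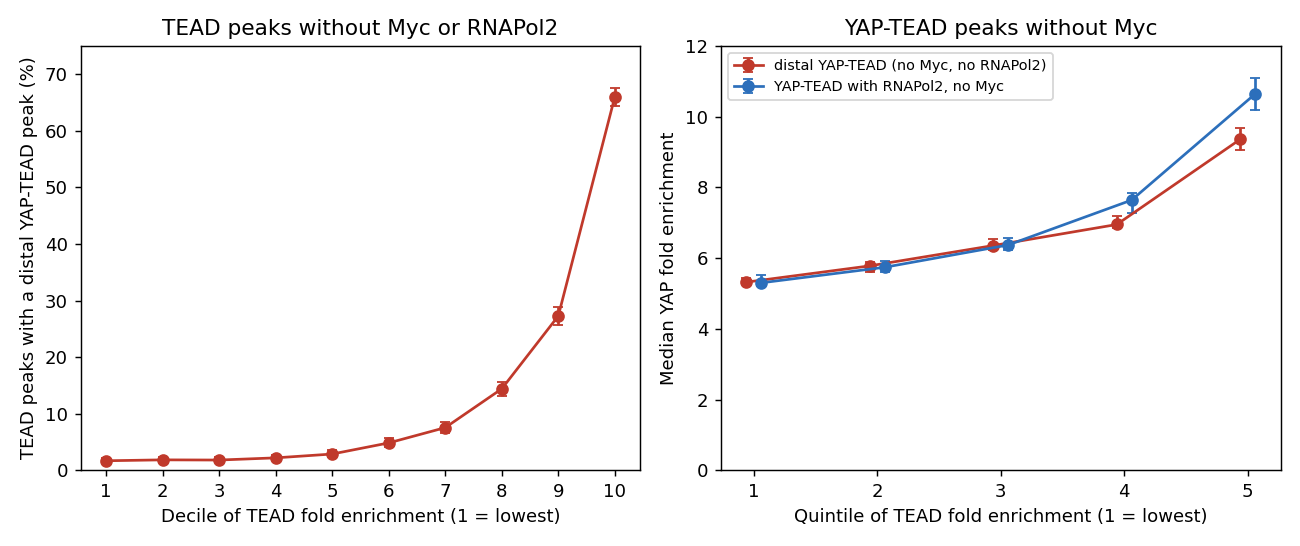
Left, percentage of TEAD peaks without Myc or RNAPol2 that overlap a distal YAP-TEAD peak (vertical axis) in 10 bins of TEAD fold of like size, with 95% Wilson intervals; right, median YAP fold enrichment of YAP-TEAD peaks without Myc by quintile of TEAD fold enrichment, with and without RNAPol2, with 95% order-statistic intervals. The share rises from 1.67% to 66.0%, and the medians on the right run together up to the third quintile and reach 9.36 without and 10.6 with RNAPol2 in the highest.

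Summits of YAP and TEAD lay close together, as far as the rule allows a reading. Since each YAP peak had to overlap a TEAD peak, the widths of the peaks limit how far apart the summits can be, and no distance that overlap alone would give was computed. The median distance between the YAP and TEAD summits of distal YAP-TEAD peaks was 41 bp (40 to 43), with quartiles of 18 and 80 bp. Summits lay within 100 bp at 3444 peaks, or 81.3% (80.1 to 82.4), and within 25 bp at 34.6%. At 90.1% the nearest TEAD summit was inside the YAP peak. The summit of TEAD was at the higher coordinate in 2161 cases and at the lower in 2053, with 22 at the same base.

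The share of summits within 100 bp was 77.4% (75.6 to 79.2) at peaks with RNAPol2 and without Myc, and 69.3% (67.5 to 71.0) at peaks with Myc and RNAPol2. Among the taller peaks of each class this order was not kept. In the upper quartile of YAP fold of each class, the share was 92.3% (90.5 to 93.7) at distal peaks, 96.4% (94.5 to 97.7) with RNAPol2 and without Myc, and 92.5% (90.3 to 94.3) with both. In the lower quartile it was 70.2% (67.4 to 72.8), 58.4% (54.2 to 62.6) and 48.8% (45.0 to 52.5). The upper quartiles began at YAP folds of 7.75, 9.36 and 9.81 in that order, so that the peaks compared were of unlike height. Widths of both peaks also differed between the classes. The part of height and width in these shares was not tested.

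**Figure D3:**
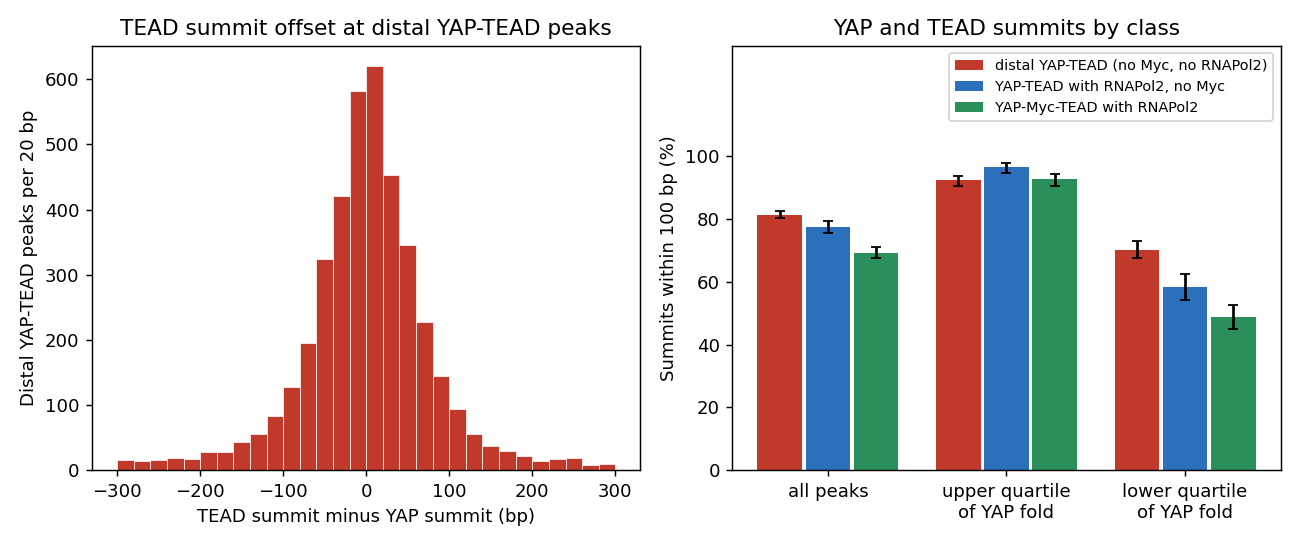
Left, number of distal YAP-TEAD peaks (vertical axis) by the offset of the TEAD summit from the YAP summit in bp (horizontal axis, bins of 20 bp, offsets up to 300 bp shown); right, percentage of peaks with summits within 100 bp for 3 classes of YAP peaks, over all peaks and in the upper and lower quartiles of YAP fold enrichment, with 95% Wilson intervals. Offsets centre on 0, and the classes differ most in the lower quartile, from 70.2% at distal peaks to 48.8% with Myc and RNAPol2.

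The distance to the nearest RNAPol2 peak, measured from edge to edge, tells how far the word distal applies. The median was 39.7 kb (37.2 to 42.9), with quartiles of 10.9 and 118.7 kb. With summits within 250 bp in place of overlap as the criterion for all lists, it was 23.6 kb, and 37.0% of the peaks lay within 10 kb of RNAPol2. Within 1 kb of RNAPol2 lay 267 distal YAP-TEAD peaks, or 6.30% (5.61 to 7.08), and 6.21% of the TEAD peaks without YAP, Myc or RNAPol2. Within 10 kb lay 1004, or 23.7% (22.4 to 25.01), while 25.6% of the TEAD peaks without YAP, Myc or RNAPol2 did. Over 100 kb away were 1232, or 29.1% (27.7 to 30.5), and 28.0% of those TEAD peaks (27.4 to 28.5). Myc peaks were farther, at a median of 54.8 kb (51.8 to 58.8), and 16.9% of the distal peaks had one within 10 kb. Both RNAPol2 and Myc were over 100 kb away at 1024 peaks, or 24.2% (22.9 to 25.5).

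Over all TEAD heights, the TEAD peaks without YAP, Myc or RNAPol2 lay slightly nearer to RNAPol2 than distal peaks did. Their median was 35.9 kb (34.8 to 36.9), against 39.7 kb (37.2 to 42.9). To Myc it was 52.6 kb (51.1 to 53.9), an interval that overlapped that of distal peaks, and 17.1% had Myc within 10 kb. Binned by quintiles of the TEAD folds of distal peaks, the 2 classes differed for both lists in the lowest, up to 9.89. Distal YAP-TEAD peaks were nearer to both there. Their median to RNAPol2 was 28.6 kb (23.8 to 33.1) against 35.0 kb (34.0 to 36.1), and to Myc 36.4 kb (31.3 to 41.3) against 51.2 kb (49.7 to 52.7). A Myc peak lay within 10 kb of 22.7% of them (19.99 to 25.6) and of 17.4% of the TEAD peaks without YAP (16.9 to 17.9). This quintile has no lower bound, and TEAD heights inside it were not matched. The classes also differ by construction, since at distal peaks only the YAP peak had to avoid RNAPol2 and Myc. Of the 4180 TEAD peaks there, 130 overlapped RNAPol2 or Myc. The part of these differences in the distances was not tested.

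Chromosome 15 held 23.6% of the distal peaks in that quintile and 8.93% of the TEAD peaks without YAP. Distal YAP-TEAD peaks there lay at a median of 27.7 kb from RNAPol2, against 42.1 kb on the other chromosomes. Without it the medians of the quintile to RNAPol2 were 30.3 kb (25.1 to 36.7) and 35.3 kb (34.2 to 36.5), with overlapping intervals, while those to Myc, 41.2 kb (34.7 to 48.5) and 53.04 kb (51.4 to 54.4), stayed apart. In the other 4 quintiles the intervals of the medians overlapped for RNAPol2 and for Myc.

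**Figure D4:**
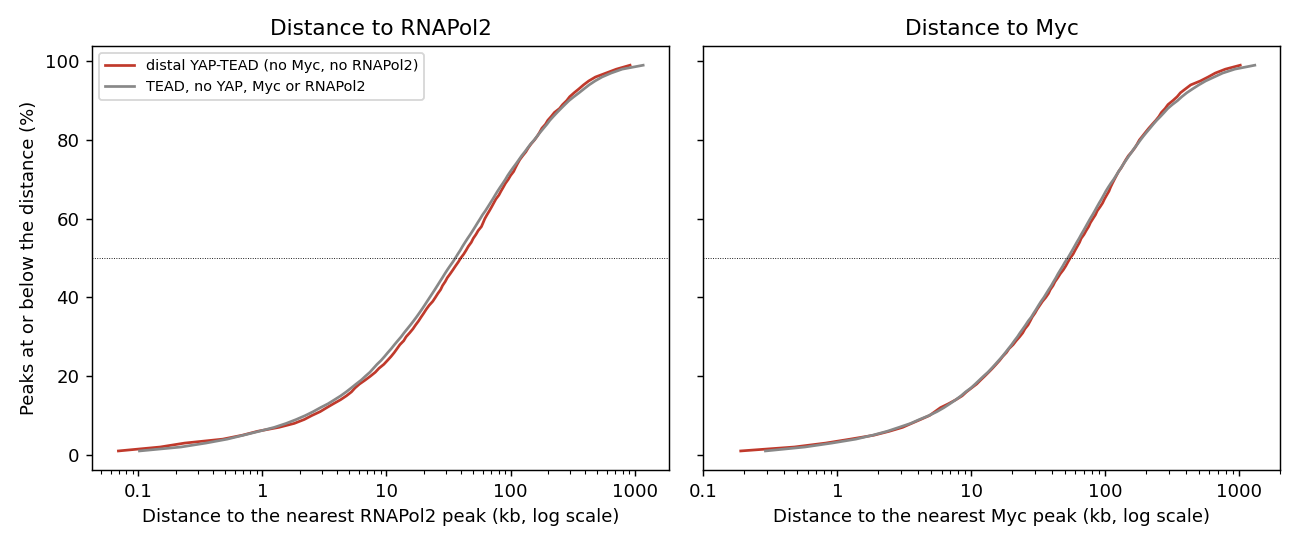
Cumulative percentage of peaks (vertical axes) by distance in kb, on a log scale, to the nearest RNAPol2 peak (left) and the nearest Myc peak (right), for distal YAP-TEAD peaks and for TEAD peaks without YAP, Myc or RNAPol2. The 2 curves nearly coincide in both panels, with medians of 39.7 and 35.9 kb to RNAPol2 and of 54.8 and 52.6 kb to Myc.

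Close to RNAPol2 the rule keeps only YAP peaks that stop short of it, which favours narrow peaks, and heights by distance are given as a description. Median widths were 260 bp up to 1 kb from RNAPol2 and 295 to 299 bp farther out, and YAP fold went with width, with a rho of 0.455 over the 4236 peaks. The part of this selection in the heights was not tested. The median YAP fold was 5.74 (5.45 to 5.94) at the peaks up to 1 kb from RNAPol2, 6.24 at 1 to 10 kb, 6.30 at 10 to 100 kb and 6.38 (6.24 to 6.55) beyond 100 kb. Median TEAD fold went from 12.9 (11.98 to 13.7) up to 1 kb away to 16.8 (16.1 to 17.4) beyond 100 kb. A YAP fold of at least 10 was found at 7 of the 267 nearest peaks, or 2.62% (1.28 to 5.31), and at 10.7% of the farthest (9.11 to 12.6).

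The most remote distal YAP-TEAD peak was chr4:78112557-78112811, 2443 kb from RNAPol2 and 2444 kb from Myc, with a YAP fold of 6.86 and a TEAD fold of 20.7. The next 3 lay close together at chr17:59698387-59698632, chr17:59521772-59522187 and chr17:59409077-59409478, 2282, 2105 and 1993 kb from RNAPol2. Their YAP folds were 7.49, 9.75 and 13.0, and the middle one had a Myc peak at 8.12 kb. The fifth was chr14:43763936-43764280, at 1983 kb, with a YAP fold of 7.13 over a background 3.07 times the lowest. All 5 had YAP and TEAD summits within 41 bp of each other.

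The nearest RNAPol2 peak overlapped a Myc peak in 46.1% of cases (44.6 to 47.6), against 23.6% of all RNAPol2 peaks, and its median RNAPol2 fold was 6.80, against 5.57 over the list. TEAD peaks without YAP, Myc or RNAPol2 gave close values, 48.1% (47.5 to 48.7) and 7.30. The nearest other YAP peak was again a distal YAP-TEAD peak in 53.9% of cases (52.4 to 55.4), while that class makes up 41.2% of the YAP list. It held YAP, Myc and TEAD in 23.4%, a class that makes up 30.2% of the list.

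Most distal YAP-TEAD peaks stood alone. The median distance between summits to the next YAP peak of any class was 34.3 kb, and 28.2% had one within 12500 bp (26.9 to 29.6). The corresponding shares were 42.7% (40.6 to 44.9) with RNAPol2 and without Myc and 45.5% (43.7 to 47.4) with Myc and RNAPol2. Another distal YAP-TEAD peak lay within 12500 bp of 704 of them, or 16.6% (15.5 to 17.8), a share not computed within the other classes. The share was 7.30% with a −log10 q of at least 10 in all lists and 9.38% in the stronger 50% of each. Joined at that distance they formed 3855 groups, of which 3532 held a single peak, 279 held 2, 34 held 3 and 10 held 4 or more.

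The peaks in groups were not the taller ones. Median YAP fold was 6.34 (6.24 to 6.41) for single peaks and 5.11 (4.70 to 5.41) for the 44 peaks in groups of 4 or more. Of these 44, 31 lay on chromosome 15. Their median control level, the background under the peak, was 1.68 times the lowest in the YAP list, against 1.07 times for single peaks, and their median pileup was 26 tags against 24. The part of the control level in the lower folds was not tested.

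There were 4 groups of 5 peaks, and the 3 with the tallest peaks are named. On chr15:6945230-6967588 they spanned 22.4 kb with YAP folds from 3.91 to 9.82, 1 Myc peak among them and RNAPol2 60.1 kb away. On chr6:17152129-17175223 they spanned 23.1 kb with YAP folds from 4.70 to 8.11, and no Myc or RNAPol2 peak lay nearer than 30.0 kb. On chr15:66545921-66563570 they spanned 17.65 kb with YAP folds from 4.08 to 6.83. There 3 of the 5 peaks shared 1 TEAD peak of fold 11.7, and 1 RNAPol2 peak lay within the group. The first 2 groups held 9 and 8 TEAD peaks, more than their YAP peaks, which numbered 6 in each.

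**Figure D5:**
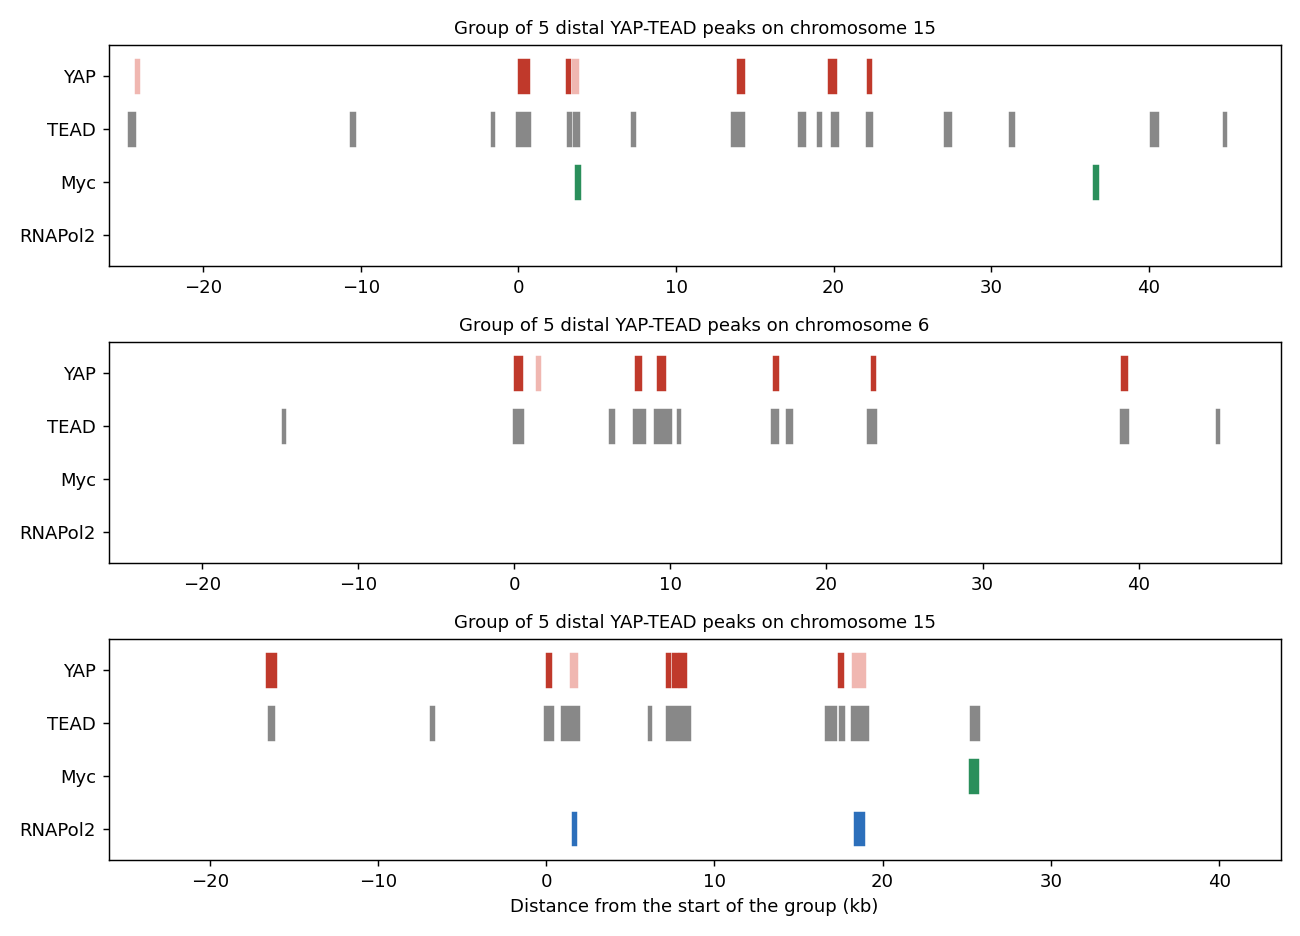
Peaks of the 4 lists (rows) in the 3 named groups of 5 distal YAP-TEAD peaks, by distance in kb from the start of the group (horizontal axes), with flanks of 25 kb; distal YAP-TEAD peaks are dark red and other YAP peaks pale red, and boxes span the called peaks and are slightly widened by their outline. The group on chromosome 6 has no Myc or RNAPol2 peak in view, and that in the lowest panel has RNAPol2 at 2 places, each under a pale red YAP peak.

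Distal YAP-TEAD peaks were found on all 19 autosomes and chromosome X, and 2 on other sequences, with 65 on chromosome 12 as the fewest of any chromosome and 504 on chromosome 15 as the most. Chromosome 15 held 11.9% of them (11.0 to 12.9), followed by chromosome 2 with 417 or 9.84%. Relative to TEAD they were frequent on chromosome 15, where 17.4% of the TEAD peaks without Myc or RNAPol2 carried one (16.0 to 18.9), against 12.6% on the other chromosomes together (12.3 to 13.0). Relative to YAP they were infrequent there, at 34.6% of the YAP peaks (32.2 to 37.1) against 42.2% elsewhere (41.2 to 43.3). This was not particular to it, since chromosomes 17 and 5 had like shares, 34.3% (30.0 to 38.9) and 35.2% (31.7 to 38.9). Chromosome 19 had the lowest share of its YAP peaks in this class, 31.0% (27.5 to 34.7), and chromosome 14 the highest, 53.1% (46.1 to 59.9).

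Folds and pileups told different things on chromosome 15. The median YAP fold of distal YAP-TEAD peaks was 5.22 there and 6.41 elsewhere, and the median TEAD fold 11.9 and 16.0. Median pileups were 27 and 24 tags for YAP, and 60 and 59 for TEAD. The control level under these YAP peaks stood at 1.65 times its lowest value on chromosome 15 and at 1.07 times elsewhere. Fold enrichment is the pileup divided by this background. The level under the TEAD peaks was not computed, and the part of the control level in the folds was not tested. Chromosomes 10 and 19, with control levels of 1.46 and 1.35 times the lowest, had 12.9% (11.4 to 14.7) and 14.8% (12.9 to 16.9) of their TEAD peaks without Myc or RNAPol2 in contact with a distal YAP-TEAD peak. The part of the control level in these shares was not tested.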

How the data were processed

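ChIP-seq libraries of 3T9MycER fibroblasts carrying inducible YAPS127A for YAP, TEAD, Myc and RNAPol2, 1 each, were grouped by sample titles. The input sample had no list analysed here. Alignment to mm9 used BWA 0.6.2 and SAMtools, as tools listed in the submitters' processing notes, with MACS2 2.0.9 for peaks. The authors ran it in narrow mode on each library alone, per the file headers, at a p-value of 1e-05, against 1 control library of 60189064 tags (whether it is the input sample is not stated), with the larger library scaled towards the smaller. The deposited values are the pileup, a signal of extended tags at the summit, the −log10 p-value and −log10 q-value, and the fold enrichment, a ratio of pileup to local background. The deposited positions are 1-based.

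From these, overlaps of at least 1 bp, distances between peak edges and distances between summits were computed, with Wilson intervals of shares and order-statistic intervals of medians. Bounds of a ratio of medians combine those of both medians. The control level of a peak is its pileup over its fold enrichment. Routines were checked on simulated intervals. Python 3.11.15, numpy 2.4.6, pandas 2.3.3, scipy 1.17.1 and matplotlib 3.10.9 were used. With 1 library per antibody no test was run.

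The regions, classes and comparisons were chosen with earlier results of these data known. The named regions are the 8 peaks of highest YAP fold, the next 5 of highest TEAD fold, the 5 farthest from RNAPol2, the 3 largest groups, and 3 on each side of the rule's edge with RNAPol2, with none on chromosome 18 to be named. The quartile, decile, 1 Mb window, nearest-peak, height-by-distance, weak-TEAD and top 1% descriptions were added after seeing the data. Alternatives changed the overlap, the peak threshold, the exclusion, the sequences used and the measure of height. Leaving chromosome 15 out of the distances at the lowest TEAD quintile was added after seeing the data. The gene and promoter tables used here are of GRCm38.p6 and the lists are in mm9, so gene assignment, motifs and peak sequences were not analysed here.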

Additional observations from a re-analysis of the deposited data

How the results depend on the processing

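No paired analysis was possible because there is 1 library per antibody. The number of distal YAP-TEAD peaks, their median YAP and TEAD folds, the YAP ratio, the summit share, the RNAPol2 median and share, the neighbour share and the chromosome 15 share were recomputed under the alternatives. Pileup and −log10 p replaced fold in the ratio alone. The values by decile, quintile, quartile, distance, group size and chromosome were not recomputed, apart from the lowest TEAD quintile without chromosome 15. The ratio of median YAP height to YAP-TEAD peaks with RNAPol2 and without Myc stayed below 1 in all of them. Leaving out mitochondrial, Y and unplaced sequences kept each of these results within its interval.

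A −log10 q of at least 10 in all lists gave 2138 distal YAP-TEAD peaks, with median folds of 8.29 for YAP and 22.2 for TEAD and a ratio of 0.887. Summits lay within 100 bp at 91.2%, the median to RNAPol2 was 45.0 kb, and 20.2% lay within 10 kb of it. A neighbour of the class within 12500 bp was found at 7.30%, and 10.8% lay on chromosome 15. The stronger 50% of each list gave 2633, with 8.11, 22.0, 0.866, 89.6%, 49.8 kb, 18.2%, 9.38% and 7.98% for the same quantities. Shorter lists leave fewer neighbours by construction, and cuts on strength tend to raise median folds. Shorter RNAPol2 and Myc lists also exclude fewer YAP peaks, so these sets can hold peaks outside the 4236. For a given YAP peak they leave the distance to RNAPol2 the same or longer.

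Counting a peak as shared when 50% of the shorter peak was covered gave a median of 35.7 kb to RNAPol2 and 26.6% within 10 kb. Summits within 250 bp, which lets a YAP peak overlap RNAPol2 away from its summit, gave 23.6 kb and 37.0%, a ratio of 0.875 and 84.1% of summits within 100 bp. Requiring no RNAPol2 or Myc peak within 1000 bp gave 46.0 kb and 18.5%. Exclusion by RNAPol2 peaks of −log10 q of at least 10 only also admitted the 549 YAP peaks on weaker RNAPol2 peaks. Distances were then taken to the stronger RNAPol2 peaks alone. The values were 45.6 kb and 21.1%, a TEAD median of 15.9 and 18.3% with a neighbour. Without chromosome 15 the medians were 6.41 for YAP and 16.0 for TEAD, with 82.7% of summits within 100 bp and 14.8% with a neighbour. Measured by pileup the ratio was 0.857, and by −log10 p it was 0.842. Of the 35 named peaks of the class, 21 remained with either stricter threshold. The causes of these changes were not tested beyond the construction of each alternative. Depth limits what was called: a site counted as lacking Myc may hold a level the library of 20441605 tags did not show.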

Other observations

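Distal YAP-TEAD peaks were spread over 1504 windows of 1 Mb, with a median of 2 per window and a single peak in 515 of them. There were 31 windows with 10 or more. Of the 5 fullest windows, chosen after their values were seen, 4 lay on chromosome 15 and 1 on chromosome 2. The windows from 42 to 43 Mb and from 55 to 56 Mb of chromosome 15 held 21 each, among 70 and 73 TEAD peaks without Myc or RNAPol2. The window from 117 to 118 Mb of chromosome 2 held 17 among 68 such TEAD peaks.

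A small set of distal YAP-TEAD peaks lay on weak TEAD peaks. At 49 of them, or 1.16%, the TEAD fold was under 5, and their median YAP fold was 4.56. Of these 49, 24 lay on chromosome 15, and their median control level was 1.57 times the lowest in the YAP list.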
